A study of Mus musculus with 6 samples.

Results

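The 10 genes described here belong to the NRF2 pathway of thiol and glutathione metabolism. They are the transcription factor gene Nfe2l2, its inhibitor gene Keap1, and the target genes Nqo1, Gclc, Gclm, Txnrd1, Srxn1, Slc7a11, Prdx1 and Me1. Members were chosen by symbol in the deposited gene table, where each symbol occurred once, giving 10 rows of 55401. Their messenger RNA was measured in cultures of mouse hepatic stellate cells, the liver pericytes that become collagen-producing myofibroblasts on plastic. The libraries were 3 from S100a16+/- mice, heterozygous for the gene of an EF-hand calcium-binding protein, and 3 from WT mice. Both genotypes were on the C57BL/6J background, and the cells of both were kept in medium with fetal bovine serum for 7 days. The labels call the heterozygous libraries knockdowns in their titles and give no age and no statement on whether libraries came from separate animals, so the p-values here reflect only how far these libraries differed, which may be technical.

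NRF2, the protein made from Nfe2l2, is held in the cytoplasm and sent for degradation by KEAP1, whose reactive cysteines sense electrophiles and oxidants. When KEAP1 is modified, NRF2 accumulates, pairs with a small MAF protein and binds antioxidant response elements, short DNA sites with the core TGACNNNGC, in the promoters of its targets. Those targets import cystine, make glutathione, and recycle thioredoxin and peroxiredoxin. In the liver the pathway is known for protection against oxidative and drug injury. It is active in hepatocytes, macrophages and stellate cells alike.

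The response element core was looked for in the promoter windows of the members, since it is the site through which the pathway acts. RefSeq promoter windows of GRCm38.p6, from 250 bases before to 50 after an annotated transcription start, were found for 9 of the 10 members, and Gclc was not matched. In these 12 windows the core TGACNNNGC, on either strand, was present in 6, belonging to 6 of the 9 genes. Over the 32851 windows of all genes, the share holding it was 12.4%. The matches are shown with 10 flanking bases on each side, read along the strand that carries the core, and the capitals mark the core. Each was on the minus strand of the genome.
Nfe2l2, chr2:75704885-75704913: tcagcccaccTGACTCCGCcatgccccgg
Srxn1, chr2:152105542-152105570: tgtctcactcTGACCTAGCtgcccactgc
Gclm, chr3:122245413-122245441: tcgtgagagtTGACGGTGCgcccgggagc
Prdx1, chr4:116685456-116685484: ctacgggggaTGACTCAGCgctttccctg
Me1, chr9:86695902-86695930: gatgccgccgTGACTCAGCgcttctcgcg
Txnrd1, chr10:82859104-82859132: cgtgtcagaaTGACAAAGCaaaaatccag
The Prdx1 and Me1 cores have the same 9 letters, which also contain the AP-1 heptamer TGANTCA. The Txnrd1 match lies before the second of its 3 annotated starts.

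The 250 bases before the start are shown for Srxn1 and Slc7a11, the members that passed the genotype test, and for Prdx1, the most abundant member. They run 5′ to 3′ along the gene, and the capitals mark TGACNNNGC and TGANTCA matches.
Srxn1, chr2:152105274-152105523, plus strand: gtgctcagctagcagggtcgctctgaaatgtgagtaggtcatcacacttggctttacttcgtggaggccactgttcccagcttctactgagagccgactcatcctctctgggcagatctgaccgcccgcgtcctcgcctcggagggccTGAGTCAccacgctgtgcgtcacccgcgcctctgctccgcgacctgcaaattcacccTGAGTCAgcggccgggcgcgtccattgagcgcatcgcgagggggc
Slc7a11, chr3:50443614-50443863, minus strand: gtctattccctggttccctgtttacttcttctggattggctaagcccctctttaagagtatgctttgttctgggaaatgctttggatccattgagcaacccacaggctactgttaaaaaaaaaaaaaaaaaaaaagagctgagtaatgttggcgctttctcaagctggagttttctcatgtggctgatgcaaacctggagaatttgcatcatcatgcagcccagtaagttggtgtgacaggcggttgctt
Prdx1, chr4:116685349-116685598, plus strand: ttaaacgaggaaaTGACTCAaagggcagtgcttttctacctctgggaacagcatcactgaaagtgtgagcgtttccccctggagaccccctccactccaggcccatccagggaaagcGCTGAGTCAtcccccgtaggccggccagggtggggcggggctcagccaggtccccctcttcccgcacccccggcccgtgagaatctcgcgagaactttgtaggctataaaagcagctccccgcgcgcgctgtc
The AP-1 heptamer TGANTCA was present in 3 of the 12 windows, those of Srxn1, Prdx1 and Me1, against 7.81% of all windows. A looser form of the core, TGANNNNGC, was present in 9 of the 12 windows, but 41.3% of all windows hold it. Those 9 windows belong to 8 of the 9 members, Slc7a11 included. The Srxn1 core lies after the start, outside the bases shown, and no TGACNNNGC match was found for Slc7a11, Nqo1 or Keap1. These are letter matches in a fixed window, and no binding was measured.

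**Figure D1:**
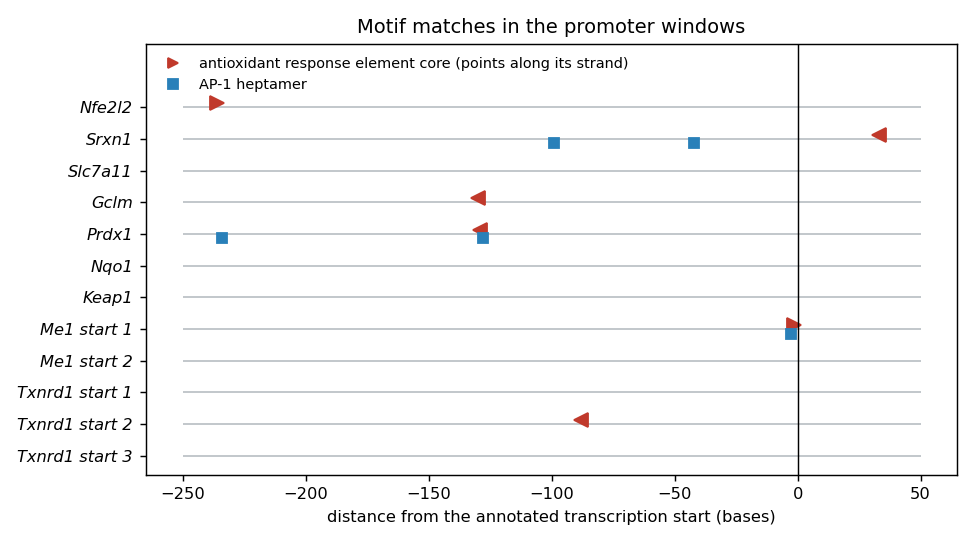
Positions of motif matches in the 12 promoter windows (one line per annotated start) against distance from the transcription start in bases. Red triangles are matches of TGACNNNGC pointing along its strand and blue squares are matches of TGANTCA; the core was found in 6 windows and the heptamer in 3.

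Library totals ran from 61979103 to 76291481 counts. S100a16 itself had an FPKM (the authors' level scaled to gene length and library size) of 18.0, 17.7 and 30.0 in S100a16+/- replicates 1 to 3, against 57.7, 58.8 and 56.8 in the WT libraries. S100a16+/- replicate 3 stood apart. Across tested genes its log2 CPM (counts scaled to library size) correlated with S100a16+/- replicates 1 and 2 at 0.941 and 0.940, whereas those libraries correlated with each other at 0.989. With WT replicates 1 to 3, S100a16+/- replicate 3 correlated at 0.960, 0.957 and 0.955, higher than with its own genotype. Its RNA was of female type, with the X-inactivation transcript Xist at 32.2 FPKM in it and at most 0.0323 FPKM in the other 5 libraries, and sex and the other ways in which this library differs cannot be told apart. Of 16 stellate and myofibroblast markers, 6 had a mean FPKM under 1, among them the retinoid-storage gene Lrat, at most 0.0517 in any library. The 16 together summed to 1111, 1084 and 150 FPKM in S100a16+/- replicates 1 to 3, against 941 to 1062 in WT. The 15 macrophage markers, none of them at 0, summed to 17355, 18610.4 and 13506 FPKM in the same S100a16+/- libraries and to 10491 to 11051 in WT. The 15 hepatocyte markers summed to 151, 149 and 748 FPKM in S100a16+/- replicates 1 to 3 and to 241 to 286 in WT. Trf and Alb were the most abundant of them and weigh most in that sum. Alb alone was at 4.81, 5.52 and 242 FPKM in S100a16+/- replicates 1 to 3, against 42.9 to 64.6 in WT. The median log2 CPM relative to the WT mean, over the 11 hepatocyte markers tested, was -2.41, -2.86 and 2.70 in those S100a16+/- libraries. The 13 endothelial markers summed to 665, 635 and 1909 FPKM in S100a16+/- replicates 1 to 3 and to 1473 to 1634 in WT. Fewer cells of a type and less RNA per cell cannot be told apart in such bulk samples, and the cell type in which a member was transcribed was not measured.

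Of the 10 members, 2 rose in the S100a16+/- libraries and none fell. These were the cystine transporter gene Slc7a11 and the sulfiredoxin gene Srxn1. Of all 12766 genes tested, 364 (2.85%) rose and 206 (1.61%) fell, 4.46% in either direction (edgeR quasi-likelihood test, Benjamini-Hochberg adjusted p under 0.05). Scaling by library totals alone gave 282 higher and 252 lower, with both members still called. All 10 members were tested, since all 60 of their FPKM values reached the minimum of 1. The members' log2 changes, S100a16+/- over WT, ran from -0.28 to 1.91 with a median of 0.55, and the median of all tested genes was 0.00. By unadjusted p under 0.05 there were 6 members, against 22.0% of all tested genes. In CPM the groups did not overlap for 8 members, 7 of them higher and 1 lower in S100a16+/-. Of tested genes 15.8% and 14.4% were separated in those directions, 30.1% in either. Gclm is among the 7 by 85.4 CPM in S100a16+/- replicate 3 against 83.7 in WT replicate 2, and its level is uncertain. The fit without S100a16+/- replicate 3 called 7 members higher and 1 lower, against 15.8% and 16.5% of 12601 tested genes in those directions and 32.3% in either. That fit also called 10 of 11 tested endothelial markers and all 11 tested hepatocyte markers lower, and the part of the cell mix in the members' calls was not tested. DESeq2 on all 6 libraries called 5 members higher (Nfe2l2, Txnrd1, Slc7a11, Prdx1 and Srxn1) and 1 lower (Me1), against 8.81% and 5.98% of tested genes. With any one of the other 5 libraries left out, no member was called by edgeR. In those fits 6 or 7 members had an unadjusted p under 0.05, as did 1835 to 2102 of 12554 to 12615 tested genes.

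**Figure D2:**
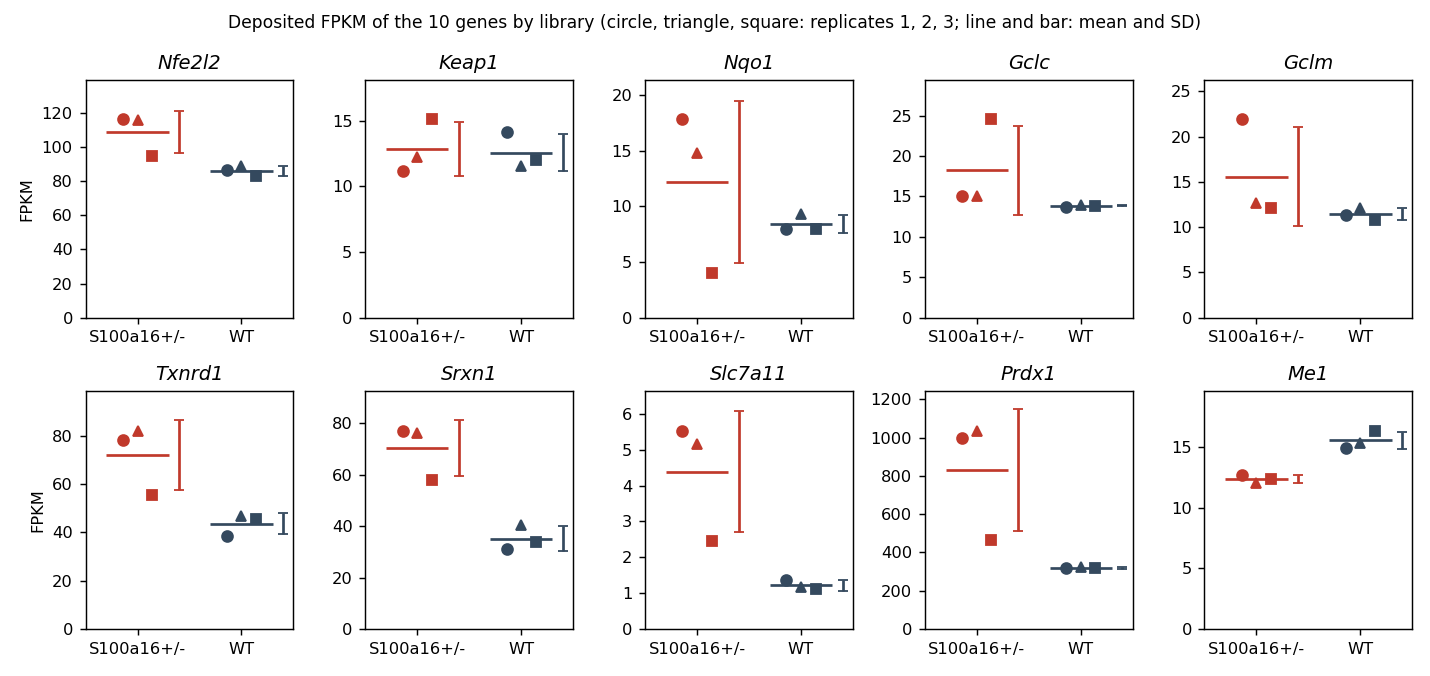
FPKM of each member (vertical axis, linear, from 0) in S100a16+/- libraries (red, left) and WT libraries (dark, right). Circles, triangles and squares are replicates 1, 2 and 3, lines are group means and bars are 1 SD; S100a16+/- replicate 3 lies between the WT libraries and the other S100a16+/- libraries for Slc7a11 (2.44 FPKM) and Prdx1 (463 FPKM), and below WT for Nqo1 (4.01 FPKM).

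Slc7a11 encodes the light chain of system xc-, which brings cystine into the cell in exchange for glutamate and so feeds glutathione synthesis. The gene (ENSMUSG00000027737, chromosome 3, 49892526 to 50443614, minus strand) had the lowest level of the 10 but the largest log2 change. Its FPKM was 5.53, 5.17 and 2.44 in S100a16+/- replicates 1 to 3, and 1.38, 1.16 and 1.11 in WT replicates 1 to 3. The S100a16+/- libraries were all above the WT libraries, with replicate 3 nearest to them at 201% of the WT mean against 456% and 426% in replicates 1 and 2. The means were 4.38 ± 1.69 and 1.21 ± 0.142 FPKM (SD, n = 3 each). Slc7a11 rose by a log2 change of 1.91 (SE 0.33, 95% interval 1.09 to 2.72, edgeR adjusted p = 0.0400). The call was lost when any one of the other 5 libraries was left out, with log2 changes from 1.70 to 2.00 (edgeR adjusted p from 0.124 to 0.190). With S100a16+/- replicate 3 left out the log2 change was 2.20 (edgeR adjusted p = 0.000151). With no filter on low values, or by limma on log2(FPKM + 1), Slc7a11 did not pass (edgeR and limma adjusted p = 0.0647 and 0.0664).

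Srxn1 encodes sulfiredoxin, which reactivates over-oxidized peroxiredoxins. The gene (ENSMUSG00000032802) spans 152105516 to 152109322 of chromosome 2, plus strand, in the deposited table. Its FPKM was 77.2, 76.4 and 58.0 in S100a16+/- replicates 1 to 3, and 31.0, 40.4 and 34.0 in WT replicates 1 to 3. The lowest S100a16+/- library lay above the highest WT library. Means of 70.6 ± 10.8 and 35.1 ± 4.82 FPKM (SD, n = 3 each) gave a rise of 1.06 on the log2 scale (SE 0.16, 95% interval 0.67 to 1.45, edgeR adjusted p = 0.0292). With any one of the other 5 libraries left out the log2 change was 0.98 to 1.16 and did not pass (edgeR adjusted p from 0.107 to 0.153). It was 1.19 without S100a16+/- replicate 3 (edgeR adjusted p = 0.00101).

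Prdx1 encodes peroxiredoxin 1, the cytosolic thiol peroxidase that sulfiredoxin serves, and was the most abundant member. Its gene (ENSMUSG00000028691, chromosome 4, 116685544 to 116700822, plus strand) had an FPKM of 995, 1035 and 463 in S100a16+/- replicates 1 to 3. The WT libraries had 316, 326 and 316 FPKM. Relative to the WT mean this was 312% and 324% in replicates 1 and 2 but 145% in replicate 3, so the groups did not overlap and the S100a16+/- libraries were far apart. Means were 831 ± 319.6 and 319 ± 5.36 FPKM (SD, n = 3 each). The log2 change of 1.44 (SE 0.32, 95% interval 0.65 to 2.22) did not pass over 6 libraries (edgeR adjusted p = 0.0696). Leaving out S100a16+/- replicate 3 gave 1.73, which passed (edgeR adjusted p = 4.04e-05). The pseudogene Prdx1-ps had no counts in any library.

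Txnrd1 encodes the cytosolic selenoprotein that keeps thioredoxin reduced with electrons from NADPH. Its FPKM was 78.4, 82.1 and 55.5 in S100a16+/- replicates 1 to 3, and 38.6, 46.6 and 45.7 in WT replicates 1 to 3. Each S100a16+/- library was above each WT library. The log2 change of 0.78 (SE 0.18, 95% interval 0.34 to 1.21) did not pass (edgeR adjusted p = 0.0741), and without S100a16+/- replicate 3 it was 0.94 (edgeR adjusted p = 0.000998). Txnrd1 (ENSMUSG00000020250) lies on chromosome 10, 82833951 to 82897712, plus strand.

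For Slc7a11, Srxn1, Prdx1 and Txnrd1 alike, S100a16+/- replicates 1 and 2 were higher than replicate 3, and replicate 3 was higher than every WT library. The summed macrophage markers took the same order between libraries. Lyz2 and Marco, at least 4377 and 1162 FPKM in every library, were the most abundant of the 15 and weigh most in that sum. Of those 15 markers 6 rose, Adgre1, Marco, Cd5l, Cd14, Msr1 and Cybb, and none fell by edgeR, against 2.85% and 1.61% of all tested genes. An unadjusted p under 0.05 was found for 8, against 22.0%. Over the list, 11 of the 15 had a log2 change above 0, against 50.2% of all tested genes. The lowest log2 change of the list was -0.47. With S100a16+/- replicate 3 left out 9 were higher and 4 lower, against 15.8% and 16.5% of all tested genes. With any one of the other 5 libraries left out at most 1 marker passed. Cybb, the catalytic subunit gene of the phagocyte NADPH oxidase, had an FPKM of 269, 286 and 193 in S100a16+/- replicates 1 to 3, against 69.0, 70.7 and 69.3 in WT (log2 change 1.89, SE 0.17, edgeR adjusted p = 0.00932). The complement genes C1qa, C1qb and C1qc, also macrophage markers, did not pass, at -0.29, -0.25 and -0.29 on the log2 scale (edgeR adjusted p = 0.275, 0.442 and 0.437), and C1qc was at 464, 472 and 741 FPKM in S100a16+/- replicates 1 to 3 and 688 to 719 in WT. The part of macrophages in the levels of the 4 members was not tested.

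Glutamate-cysteine ligase makes the first and rate-limiting product of glutathione synthesis and consists of a catalytic subunit, from Gclc, and a modifier subunit, from Gclm. Neither subunit gene passed over 6 libraries. Gclc (ENSMUSG00000032350, chromosome 9, 77754535 to 77794485, plus strand) had an FPKM of 15.0, 15.1 and 24.5 in S100a16+/- replicates 1 to 3. In the WT libraries it had 13.8, 13.9 and 13.9 FPKM, a spread of 0.0859 (SD, n = 3) around 13.8. The high S100a16+/- library was replicate 3, which was the opposite of the order for Slc7a11 and Prdx1. Its log2 change was 0.44 (SE 0.19, 95% interval -0.03 to 0.92, edgeR adjusted p = 0.258), and 0.19 without S100a16+/- replicate 3, where it passed (edgeR adjusted p = 0.0262).

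Gclm (ENSMUSG00000028124, chromosome 3, 122245557 to 122270732, plus strand) had an FPKM of 21.9, 12.7 and 12.1 in S100a16+/- replicates 1 to 3, and 11.4, 12.1 and 10.8 in WT replicates 1 to 3. Only S100a16+/- replicate 1 was clearly above WT. The log2 change was 0.50 (SE 0.24, 95% interval -0.10 to 1.10, edgeR adjusted p = 0.303). Gclm overlaps Gm17494, an antisense gene on the other strand (122255958 to 122293720). In S100a16+/- replicates 1 to 3 Gclm had 10840, 6206 and 5224 counts and Gm17494 had 3744, 7652 and 6331. In WT replicates 1 to 3 Gclm had 5237, 6455 and 5489 counts and Gm17494 had 8247, 8416 and 7575. The Gclm share of the pair was 74.3% in S100a16+/- replicate 1 and 38.8% to 45.2% in the other 5 libraries. The sum, in CPM, was 111%, 108% and 98.7% of its WT mean in S100a16+/- replicates 1 to 3. In WT replicates 1 to 3 it was 106%, 101% and 92.9%, so the groups overlapped in the sum. Counts summed over the pair had a log2 change of 0.08 (SE 0.08, 95% interval -0.12 to 0.28, edgeR adjusted p = 0.618), a comparison chosen after the values were seen. The sources used here do not say whether counting used the strand, so the Gclm level is uncertain. Nor did Gclm alone pass with S100a16+/- replicate 3 left out, at 0.66 (edgeR adjusted p = 0.0721). With S100a16+/- replicate 1 left out it was 0.17.

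**Figure D3:**
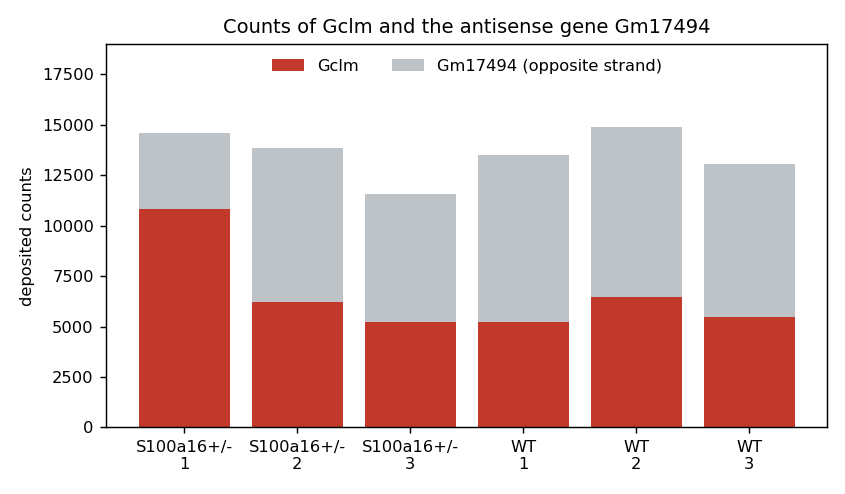
Deposited counts (vertical axis, from 0) of Gclm (red) stacked with those of the antisense gene Gm17494 (grey) in each library. The Gclm part is 10840 counts in S100a16+/- replicate 1 and 5224 to 6455 in the other 5 libraries, where Gm17494 has 6331 to 8416.

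Nqo1 and Me1 are the remaining target genes of the list. Nqo1 encodes the quinone reductase that is widely used to report NRF2 activity, and its level in the S100a16+/- libraries spread to both sides of WT. Its FPKM was 17.8, 14.9 and 4.01 in S100a16+/- replicates 1 to 3, and 7.96, 9.33 and 7.95 in WT replicates 1 to 3. Relative to the WT mean, S100a16+/- replicates 1 and 2 reached 212% and 177%, and replicate 3 was the lowest of all 6 libraries, with 47.6%. The log2 change of 0.60 (SE 0.52, 95% interval -0.69 to 1.88) did not pass (edgeR adjusted p = 0.568), and without S100a16+/- replicate 3 it was 1.02 and passed (edgeR adjusted p = 0.00220). Nqo1 (ENSMUSG00000003849) spans 107388225 to 107403206 of chromosome 8, minus strand.

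Me1 encodes cytosolic malic enzyme, which makes NADPH and also serves fatty acid synthesis. It was the single member with a negative log2 change over 6 libraries. Its FPKM was 12.7, 12.0 and 12.4 in S100a16+/- replicates 1 to 3, and 15.0, 15.4 and 16.4 in WT replicates 1 to 3. Each S100a16+/- library was below each WT library, and here replicate 3 lay between the other S100a16+/- libraries. The log2 change was -0.28 (SE 0.06, 95% interval -0.44 to -0.13, edgeR adjusted p = 0.0697), and -0.27 without S100a16+/- replicate 3, where it passed (edgeR adjusted p = 0.0206). Me1 (ENSMUSG00000032418) spans 86581371 to 86695953 of chromosome 9, minus strand.

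Neither regulator passed over 6 libraries. Nfe2l2 (ENSMUSG00000015839, chromosome 2, 75675513 to 75704641, minus strand) had an FPKM of 116, 116 and 94.7 in S100a16+/- replicates 1 to 3, and 86.6, 88.8 and 83.2 in WT replicates 1 to 3. The groups did not overlap, and the log2 change of 0.39 (SE 0.11, 95% interval 0.13 to 0.66) did not pass (edgeR adjusted p = 0.110). Leaving out S100a16+/- replicate 3 raised it to 0.50 (edgeR adjusted p = 0.000689). Keap1 (ENSMUSG00000003308, chromosome 9, 21229730 to 21239361, minus strand) had 11.1, 12.2 and 15.1 FPKM in S100a16+/- replicates 1 to 3, and 14.1, 11.5 and 12.0 in WT replicates 1 to 3. The Keap1 groups overlapped, with a log2 change of 0.08 (SE 0.14, 95% interval -0.25 to 0.41, edgeR adjusted p = 0.783) that was -0.039 without S100a16+/- replicate 3 (edgeR adjusted p = 0.815). NRF2 is controlled mainly through its protein, which was not measured here.

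**Figure D4:**
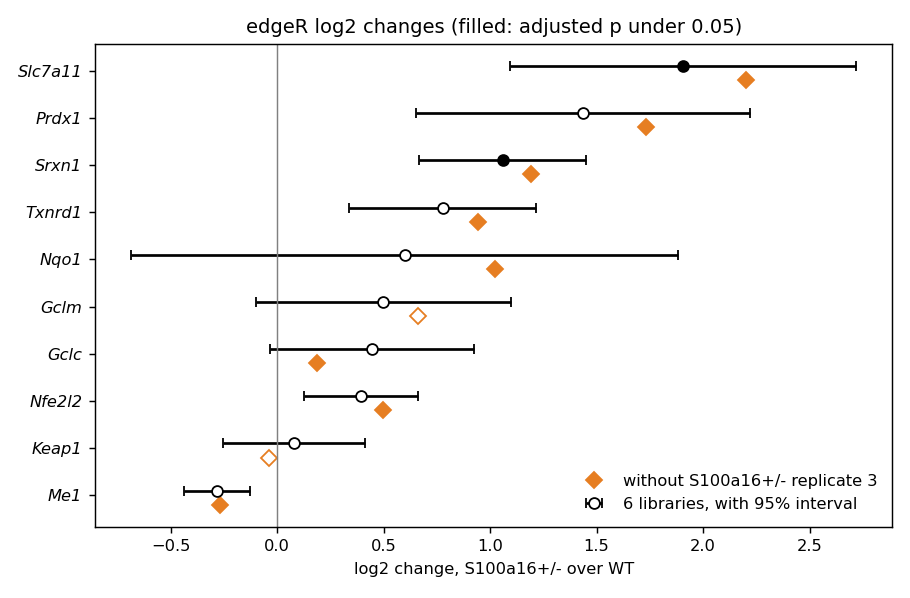
Log2 changes of the 10 members, S100a16+/- over WT (horizontal axis), from all 6 libraries (circles with 95% intervals) and without S100a16+/- replicate 3 (diamonds). Filled symbols have an edgeR adjusted p under 0.05: Slc7a11 (1.91) and Srxn1 (1.06) over 6 libraries, and 8 members without that library, with Gclm and Keap1 open.

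On the FPKM scale, which divides by length, the members' mean levels in the S100a16+/- libraries ran from 831 (Prdx1) through 109 (Nfe2l2), 72.0 (Txnrd1), 70.6 (Srxn1), 18.2 (Gclc), 15.6 (Gclm), 12.8 (Keap1), 12.4 (Me1) and 12.2 (Nqo1) to 4.38 (Slc7a11). In WT the order was Prdx1 (319), Nfe2l2 (86.2), Txnrd1 (43.6), Srxn1 (35.1), Me1 (15.6), Gclc (13.8), Keap1 (12.6), Gclm (11.4), Nqo1 (8.41) and Slc7a11 (1.21). Within WT the ranges of Txnrd1 and Srxn1, of Gclc and Keap1 and of Keap1 and Gclm overlapped, and the other neighbours in that order did not. The lengths implied by count and FPKM were 1.11 times the summed exons of GENCODE M21 for each member. A gene whose main transcript leaves out many annotated exons therefore has an understated FPKM, and such levels compare genes roughly.

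The members' profiles over the 6 libraries, as log2 CPM relative to the WT mean, were most alike for Txnrd1 and Srxn1, with a root mean square difference of 0.22, and least alike for Slc7a11 and Me1, at 1.52. Among 12765 other tested genes the nearest to Slc7a11 was the chemokine gene Cxcl2, at 0.14. The nearest to Srxn1 was Igsf6, at 0.08, and to Prdx1 Plxdc1, at 0.07. For Txnrd1 it was Cd24a and for Gclc the interferon-induced kinase gene Eif2ak2, at 0.04 and 0.05. Nqo1 was nearest to Smad6 and Gclm to Tfec, at 0.11 and 0.09. For Nfe2l2, Keap1 and Me1 the nearest genes were Atp6v1g1, Zfp955a and Tle3, at 0.03, 0.04 and 0.02. These are likenesses over 6 libraries, with no test.

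Other genes of the pathway were taken from 6 lists holding 102 genes beside the members, of which 90 were tested. In the S100a16+/- libraries 6 rose and 2 fell, with a median log2 change of 0.14. Of all tested genes 2.85% rose and 1.61% fell, shares that apply to each list below. The fit that left out S100a16+/- replicate 3 called 33 higher and 15 lower of 89 tested, against 15.8% and 16.5% of all tested genes. With any one of the other 5 libraries left out none of the related genes was called by edgeR. DESeq2 called 16 higher and 5 lower, against 8.81% and 5.98% of all tested genes.

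Among 24 other NRF2 targets 3 rose and 1 fell, and 21 had a log2 change above 0, with a median of 0.40. In all tested genes 50.2% had a log2 change above 0. Hmox1, which encodes the inducible heme oxygenase, had an FPKM of 1081, 1129 and 774 in S100a16+/- replicates 1 to 3, and 497, 520.0 and 485 in WT (log2 change 1.04, SE 0.17, edgeR adjusted p = 0.0340). Ftl1, the ferritin light chain gene, rose by 0.87 (SE 0.14, edgeR adjusted p = 0.0331), but an overlapping gene on the same strand held 17.9% as many counts and its level is uncertain. Esd, which encodes a glutathione-dependent esterase, rose by 0.83 (SE 0.14, edgeR adjusted p = 0.0407). The aldehyde oxidase gene Aox1 fell, at 2.06, 2.04 and 1.60 FPKM in S100a16+/- replicates 1 to 3 against 3.59, 3.63 and 3.98 in WT (log2 change -0.92, SE 0.13, edgeR adjusted p = 0.0264). Of 23 tested without S100a16+/- replicate 3, 13 were higher and 3 lower, against 15.8% and 16.5% of all tested genes.

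**Figure D5:**
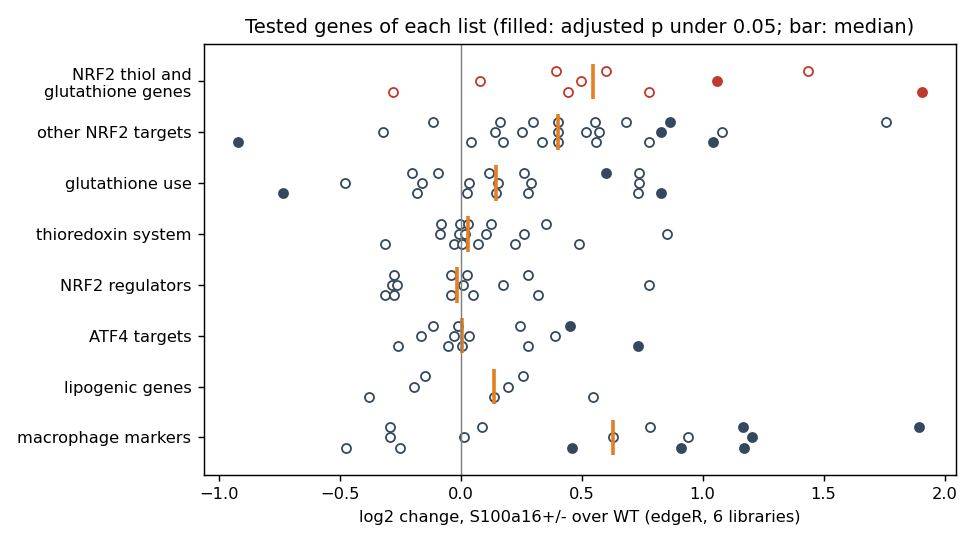
Log2 changes, S100a16+/- over WT (horizontal axis, edgeR, 6 libraries), of tested genes in the members' list (red), the 6 related lists and the macrophage marker list. Filled points have an adjusted p under 0.05 and orange bars are list medians, 0.55 for the members, 0.40 for other NRF2 targets and 0.63 for macrophage markers.

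Glutathione use showed changes in both directions. Of 19 tested genes 2 rose and 1 fell, with a median log2 change of 0.15, and one of the risers was Esd again, which is in both lists. Gsr, which encodes glutathione reductase, had an FPKM of 64.5, 66.0 and 74.7 in S100a16+/- replicates 1 to 3, and 43.5, 48.0 and 48.6 in WT (log2 change 0.60, SE 0.08, edgeR adjusted p = 0.0218). Oplah, the oxoprolinase gene of glutathione breakdown, had an FPKM of 3.94, 3.58 and 4.15 in S100a16+/- replicates 1 to 3, and 6.91, 7.34 and 5.89 in WT (log2 change -0.74, SE 0.11, edgeR adjusted p = 0.0271). Both genes were separated between the groups, with replicate 3 the S100a16+/- library farthest from WT for Gsr and nearest to WT for Oplah. When S100a16+/- replicate 3 was left out, 8 of the 19 were higher and 3 lower, against 15.8% and 16.5% of all tested genes.

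In the thioredoxin system none of 17 tested genes passed by edgeR, and the median log2 change was 0.03. An unadjusted p under 0.05 was found for 3, against 22.0% of all tested genes. DESeq2 called 2 higher, against 8.81%. The genes with the smallest p were Txndc17, at 0.26, and the peroxiredoxin gene Prdx5, at 0.85 (edgeR adjusted p = 0.0839 and 0.0906). Leaving out S100a16+/- replicate 3 gave 5 higher and 3 lower of the 17, against 15.8% and 16.5% of all tested genes.

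None of 14 tested regulators and partners of NRF2 passed by edgeR, and their median log2 change was -0.01. An unadjusted p under 0.05 was found for 6, against 22.0% of all tested genes. DESeq2 called 2 higher and 2 lower, against 8.81% and 5.98%. Sqstm1, whose protein competes with NRF2 for KEAP1, had a log2 change of 0.28, and the small MAF gene Mafk -0.26 (edgeR adjusted p = 0.0817 and 0.0823). In the fit without S100a16+/- replicate 3 there were 3 higher and 4 lower of the 14, against 15.8% and 16.5%.

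Slc7a11 is also a target of ATF4, the factor of the amino-acid response. Of 13 tested genes of that list 2 rose, the mitochondrial folate enzyme gene Mthfd2 at 0.73 and the asparagine synthetase gene Asns at 0.45 (SE 0.13 and 0.09, edgeR adjusted p = 0.0413 and 0.0479), and the median was 0.00. Only these 2 had an unadjusted p under 0.05, against 22.0% of all tested genes. Slc3a2, which encodes the heavy chain that pairs with the Slc7a11 product, had an FPKM of 67.9, 67.8 and 47.1 in S100a16+/- replicates 1 to 3, and 53.5, 54.0 and 49.0 in WT (log2 change 0.28, SE 0.16, edgeR adjusted p = 0.391). Without S100a16+/- replicate 3, 3 of the 13 were higher and 3 lower, against 15.8% and 16.5% of all tested genes.

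Me1 shares its role in lipid synthesis with Fasn, Srebf1 and other lipogenic genes, of which 7 were tested. None passed by edgeR or DESeq2, and the median log2 change was 0.14. By unadjusted p under 0.05 there was 1, against 22.0% of all tested genes. The log2 changes were -0.19 for Srebf1 and -0.15 for Fasn (edgeR adjusted p = 0.191 and 0.328). An overlapping gene on the opposite strand held 34.1% as many counts as Srebf1. Of these 7, 3 were higher and none lower by edgeR without S100a16+/- replicate 3, against 15.8% and 16.5% of all tested genes.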

How the data were processed

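One table of 55401 mouse genes was used. Per the file headers the authors deposited counts and FPKM for every library. The deposited counts were whole and unscaled, and the deposited FPKM, scaled to gene length and library size, was 0.0001 wherever the count was 0. Tools listed in the submitters' processing notes, without roles, are HISAT2 2.0.4, StringTie 1.3.4d, cutadapt 1.9, edgeR, DESeq2 and UMI-tools. Per the labels' protocols, libraries were poly(A)-selected, strand-marked by dUTP and tagged with molecular identifiers. The sources used here do not give the genome build, or whether counts are reads, fragments or collapsed molecules. The table's coordinates equalled GENCODE M21 (GRCm38) for 9 of the 10 members. For Srxn1 the table ends at 152109322 and that annotation at 152111376.

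Genes reaching FPKM 1 in 3 or more of the 6 libraries were tested. The quasi-likelihood test of edgeR 4.0.16 in R 4.3.3 was run on TMM-scaled counts, genotype as the only term, with Benjamini-Hochberg adjustment over all genes tested and a call at an adjusted p under 0.05. SE is the log2 change over the square root of F, and intervals use edgeR's degrees of freedom. Alternatives covered scaling, filters, DESeq2 1.42.0, limma 3.58.1 on log2(FPKM + 1) and other pseudocounts, the replicate number as a block and each library left out. On simulated counts for 12766 genes of this comparison, the edgeR step recovered 48% of 2-fold and 84% of 4-fold changes. Of its calls 9.59% were false, above the share that an adjusted p threshold of 0.05 is meant to allow.

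Members and lists were chosen with earlier results of these data known. Genes named beside the members were the called ones of each related list, or the 2 with the smallest p. Hmox1, Cybb and the C1q genes are described in more detail, and Slc3a2 is named, after their values were seen.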

Additional observations from a re-analysis of the deposited data

How the results depend on the processing

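Over 6 libraries 2 members rose and none fell, 6 related genes rose and 2 fell, and 364 genes rose and 206 fell of all tested. With no filter on low values these were 1 member higher, 2 related genes higher, and 162 genes higher and 81 lower. A minimum mean FPKM of 5, which leaves out Slc7a11, gave different counts: 1 member was higher, 1 related gene was lower and 137 genes in all were lower. DESeq2 called 5 members higher and 1 lower, 16 related genes higher and 5 lower, and 1125 genes higher and 763 lower. With limma on log2(FPKM + 1), log2(FPKM + 0.1) or log2(FPKM + 5), 1 member was higher, Srxn1 in each; a pseudocount of 5 also called 1 lower, Me1, and 0.1 gave 3 related genes higher and 214 genes higher in all. Leaving out 1 library gave 0 to 7 members higher and 0 to 1 lower, 0 to 33 related genes higher and 0 to 15 lower, and 20 to 1990 genes higher and 5 to 2076 lower. The highest of each came without S100a16+/- replicate 3, and without any one of the other 5 libraries no member was called. Libraries sharing a replicate number were not alike in their deviations from the group means (correlations -0.15, 0.05 and -0.08). With 3 libraries a group, this cannot settle whether they were prepared in pairs. With the replicate block 0 genes, members and related genes were called in either direction by edgeR, where 6 members and 2207 of all tested genes had an unadjusted p under 0.05. Of the members' log2 changes over these settings, Keap1 alone changed sign, with -0.039 to 0.17 over the left-out libraries and the negative value without S100a16+/- replicate 3. Limma on log2(FPKM + 1) gave 248 genes higher and 243 lower. Scaling by RLE, upper quartile or library totals kept both members' calls. The causes of these shifts were not tested. With 3 libraries a group, a 2-fold change was recovered in 48% of simulated cases, so smaller differences among the members may not be detectable at this number.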

Other observations

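Among the other NRF2 targets were 4 genes of the pentose phosphate pathway, which supplies NADPH to glutathione and thioredoxin reductases. None of the 4 was called by edgeR over 6 libraries. There 3 had an unadjusted p under 0.05, against 22.0% of all tested genes. DESeq2 called G6pdx and Pgd higher (DESeq2 adjusted p = 0.00785 and 0.0103). G6pdx had an FPKM of 104, 101 and 74.6 in S100a16+/- replicates 1 to 3, and 65.0, 66.8 and 65.5 in WT (log2 change 0.56, SE 0.14, edgeR adjusted p = 0.0946). Pgd had 92.2, 94.1 and 55.1 FPKM in S100a16+/- replicates 1 to 3, and 48.3, 49.4 and 48.6 in WT (log2 change 0.78, SE 0.22, edgeR adjusted p = 0.115). Taldo1 had 222, 227 and 129 FPKM in S100a16+/- replicates 1 to 3, and 135, 139 and 132 in WT (log2 change 0.57, SE 0.23, edgeR adjusted p = 0.223). Tkt had 63.4, 62.9 and 38.9 FPKM in S100a16+/- replicates 1 to 3, and 48.8, 49.4 and 45.7 in WT (log2 change 0.25, SE 0.21, edgeR adjusted p = 0.538). In FPKM, S100a16+/- replicate 3 was above every WT library for G6pdx and Pgd and below every WT library for Taldo1 and Tkt. For Taldo1 that order depends on the scaling, with 314 CPM in WT replicate 3 and 315 CPM in S100a16+/- replicate 3. With that library left out, G6pdx, Pgd, Taldo1 and Tkt were higher by 0.71, 0.998, 0.80 and 0.46 on the log2 scale (edgeR adjusted p = 0.000137, 5.2e-05, 0.000151 and 0.00133). The ferritin heavy chain gene Fth1, at 2861, 3153 and 1858 FPKM in S100a16+/- replicates 1 to 3 and 1299.7, 1313 and 1250.4 in WT, also did not pass (log2 change 1.08, SE 0.22, edgeR adjusted p = 0.0588), and without S100a16+/- replicate 3 it passed at 1.29 (edgeR adjusted p = 0.000115). These genes were picked after their values were seen.

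Nfe2l1, the gene of the NRF2-related factor that controls proteasome genes, fell into separate levels that did not follow genotype. Its FPKM was 18.4, 61.3 and 62.7 in S100a16+/- replicates 1 to 3, and 55.5, 15.6 and 14.7 in WT replicates 1 to 3 (log2 change 0.78, SE 0.70, edgeR adjusted p = 0.580). No other gene of the table overlaps it.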
